A study of Mus musculus with 26 samples.

Results

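Potassium channel genes were taken here as every gene of the deposited count tables whose symbol begins with Kcn, followed by lower-case letters and a number, which gave 97 of 24421 genes. The members are pore-forming subunits, auxiliary subunits and 4 antisense or noncoding transcripts that carry a channel gene's name. At least 1 count was found in 1 of the 26 libraries or more for 87 members, and 20 had a count in every library. The other 10 had none: Kcnj1, Kcnj6, Kcnj9, Kcnk9, Kcnk18, Kcnh7, Kcnh8, Kcnmb3, Kcnd3os and Kcnmb4os1.

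Potassium channels let potassium ions cross the cell membrane along their gradient and thereby set the resting potential. Voltage-gated members open on depolarisation, inward rectifiers and pores with paired domains carry current near rest, and a further group opens when calcium or sodium rises inside the cell. In the heart these currents are best known from the myocytes, where they end the action potential, and from vascular smooth muscle and pericytes, where they set vessel tone; in fibroblasts they set the membrane potential.

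The samples were bulk RNA sequencing libraries of cardiac stromal cells. The mice were B6.129S4-Pdgfratm11(EGFP)Sor/J, given as C57BL/6, with the genotype PDGFRa H2BEGFP+, so that nuclear green fluorescent protein is made where Pdgfra, the gene of a receptor found in fibroblasts, is active. All groups, undamaged hearts included, carry this knock-in allele. Cells negative for CD45 and CD31 and positive for the reporter were sorted into SCA-1 positive and SCA-1 negative gates, SCA-1 being the surface protein of Ly6a. Hearts were undamaged (5 positive and 4 negative libraries) or taken after the left anterior descending (LAD) artery had been tied, at day 7 (6 libraries), day 14 (2 positive, 2 negative) and day 28 (4 positive, 3 negative). The labels give the gate of only 2 day 7 libraries, 1 positive and 1 negative. For the other 4 it was read from the names of their deposited tables, so wherever day 7 values are given as positive and negative the split rests on those names for 4 of the 6 libraries. Age, sex and the number of animals are not given in the labels, and nothing in them says which libraries came from separate animals, so p-values measure the spread between these libraries, which may in part be technical.

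Libraries held 6.79 M to 48.8 M gene counts, and the members together took 0.0264% to 0.0459% of them. A count of 3 was worth 0.0583 to 0.416 CPM (counts per M gene counts), so lower levels could not be told from 0. In undamaged hearts Ly6a was above its negative-gate level in the positive gate by 3.68 ± 0.51 (log2 ± SE; adjusted p = 0.000269), by 3.07 ± 0.57 at day 28 (adjusted p = 0.0129) and by 3.23 ± 0.53 at day 7 by table name (adjusted p = 0.00611, edgeR quasi-likelihood test throughout). At day 14 the difference was 2.81 ± 0.71 and not called (adjusted p = 0.437). Xist exceeded 20 CPM in 6 libraries, 4 of day 7 and 2 of day 14, and 3 undamaged libraries (negative A6, negative B7, positive B7) detected the fewest genes. Most libraries carry 1 of 2 kinds of code, a letter with a digit and the same behind a number (here prefixed). The 2 day 7 libraries with a labelled gate carry no such code, so results among prefixed libraries leave them out. What the codes stand for is not stated. In bulk libraries, fewer cells of a type and less RNA per cell cannot be told apart.

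Levels of different genes are compared per length, as CPM scaled by the trimmed mean of M-values (TMM) and divided by the gene's exon length in kb. On that scale Kcne4 had the highest mean of the members over the 26 libraries, 20.7 CPM per kb. Kcnt2 followed at 10.2, Kcnk2 at 9.51, Kcnj15 at 8.42, Kcnj8 at 4.36, Kcnip3 at 4.27 and Kcnk6 at 3.36 CPM per kb. Kcnt2 is a channel activated by ions, and of the others of that role Kcnn1 stood at 1.37, Kcnn3 at 1.26 and Kcnma1 at 1.01 CPM per kb. Of the 97 members, 25 had a mean of at least 1 CPM and 9 a mean of at least 10 CPM. By role, 28 of 30 voltage-gated pore subunits had a count but only 6 reached a mean of 1 CPM. The corresponding numbers were 12 of 15 and 3 for inward rectifiers, 12 of 14 and 3 for the paired-domain leak channels (Kcnk), 8 of 8 and 4 for the calcium- or sodium-activated pores, 10 of 10 and 3 for the silent subunits and 15 of 16 and 5 for the auxiliary subunits.

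**Figure D1:**
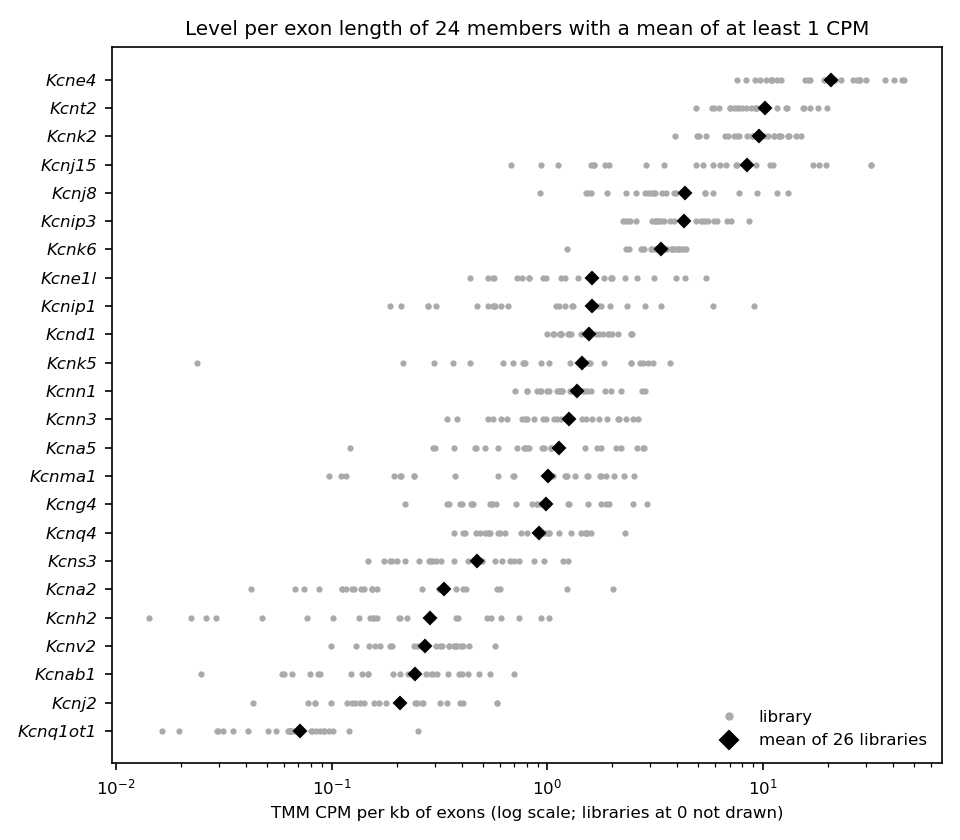
Level per exon length of 24 of the 25 members with a mean of at least 1 CPM. Each grey point is 1 library (TMM CPM per kb of exons, log scale, libraries at 0 not drawn) and the diamond is the mean of 26 libraries; Kcne4 has the highest mean (20.7) and Kcnma1 and Kcnj15 spread widely between libraries.

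The first comparison set each time after ligation against undamaged hearts, with both gates together. After the low-count filter 38 members were tested. At day 7, 11 members were higher and 7 lower (47.4% of those tested; over all 13392 genes 22.8% were called, 11.5% higher and 11.2% lower; adjusted p under 0.05, edgeR quasi-likelihood test). At day 14, 10 were higher and 2 lower (31.6% against 8.98% of all genes, 5.84% higher and 3.14% lower). At day 28, 4 were higher and none lower by edgeR (10.5% against 5.39%, 3.45% higher and 1.94% lower), with 4 lower at an unadjusted p under 0.05. DESeq2 called 5 higher and 1 lower (Kcnh2) at day 28. Letter-coded libraries alone called 5 members at day 28, of 1464 genes called, with 3 higher and Kcns3 and Kcnn1 lower. The median log2 difference of the tested members was 0.29, 0.31 and -0.23 at days 7, 14 and 28, and that of all genes was -0.04, -0.03 and 0.00. The filter bears on these counts: 26 of the 38 pass it on the undamaged libraries alone, and of those 6 were higher and 7 lower at day 7, 5 higher and 2 lower at day 14, and 3 higher and none lower (0 by edgeR) at day 28. The other 12 pass only because of later libraries, and Kcnh1, Kcnh3, Kcng2, Kcns1 and Kcnn4 are among them. The shares over all genes given above are not restricted in this way, so the counts of the 26 have no such share beside them. The 3 comparisons share the undamaged libraries.

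These tests count each library on its own, although libraries of the same code in both gates of a time deviated together. With the counts of the 9 same-coded pairs summed, 17 libraries remained (6 undamaged, 4 of day 7, 2 of day 14 and 5 of day 28). At day 7 the pairs were 1A with 1B and 4A with 4B, and the labelled positive and negative libraries were kept apart. Then 12 members were higher and 5 lower at day 7, 8 were called at day 14 and 4 at day 28, all of them higher. Over all genes this fit called 2374, 609 and 525 at days 7, 14 and 28. With each library on its own these numbers were 3048, 1203 and 722. At day 7 Kcnip3 (-0.66, adjusted p = 0.0909), Kcng4 (-1.40, adjusted p = 0.0607) and Kcnn3 (0.88, adjusted p = 0.0503) were no longer called. At day 14 this was so for Kcne4 (0.91, adjusted p = 0.0857), Kcnip3 (-0.84, adjusted p = 0.209), Kcns1 (3.68, adjusted p = 0.0661) and Kcnab1 (-1.997, adjusted p = 0.0668).

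By time, 4 members were called at all 3 times, all higher: Kcne4, Kcnma1, Kcnj15 and Kcnh1. At days 7 and 14 but not day 28, 8 were called, among them Kcnd1, Kcnh3, Kcng2, Kcns1 and Kcnn4, higher, and Kcnip3 and Kcnab1, lower. At day 7 alone, 6 were called: Kcnn3, higher, and Kcnt2, Kcnk2, Kcna2, Kcna5 and Kcng4, lower. A call at one time and none at another does not show that the times differ, and that difference was not tested. The other 20 tested members were called at no time, Kcnip1, Kcnj8 and Kcnk6 among them.

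**Figure D2:**
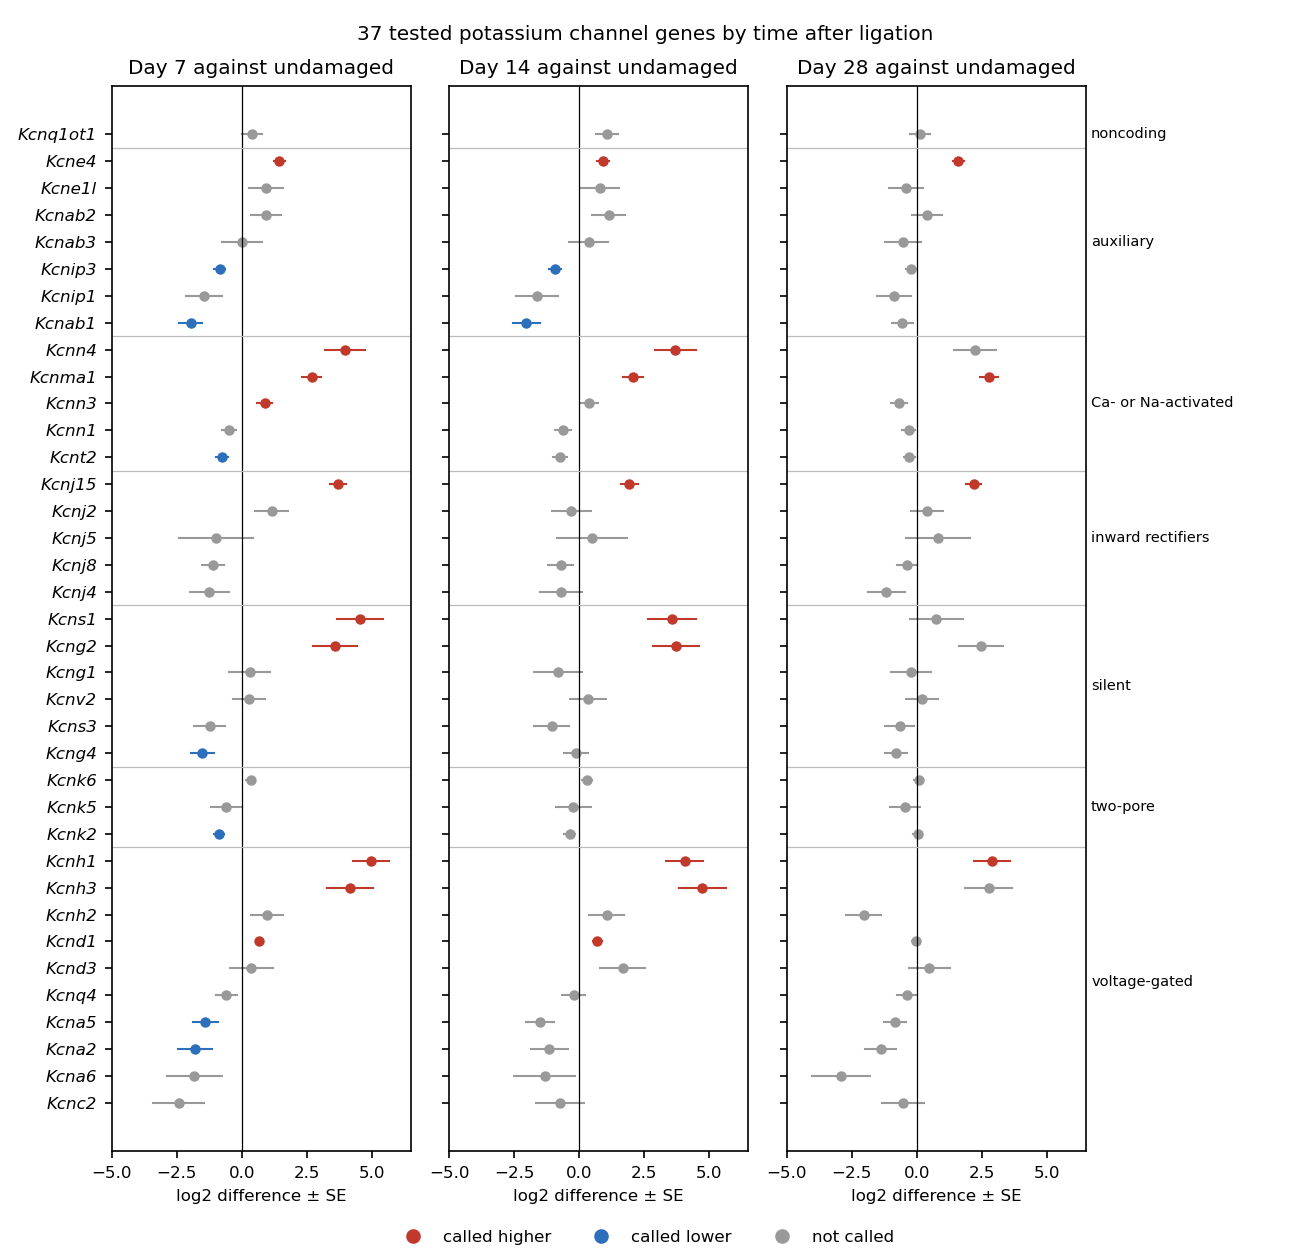
Log2 difference from undamaged hearts (points) ± SE (bars) of 37 of the 38 tested members at days 7, 14 and 28, grouped by role, with called members coloured. Of those drawn, 10 are called higher and 7 lower at day 7; at day 28, 4 are called, all higher.

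Because 4 members were called higher at all 3 times, the 250 bases upstream of the RefSeq start of each (GRCm38.p6) are shown, 5′ to 3′ on the gene's strand, with CpG dinucleotides in capitals. Such a sequence was found for 71 of the 97 members. The windows are chr1:78816661-78816910 (plus strand) for Kcne4, chr1:192190527-192190776 (plus) for Kcnh1, chr14:24004206-24004455 (minus) for Kcnma1 and chr16:95257308-95257557 (plus) for Kcnj15.
Kcne4: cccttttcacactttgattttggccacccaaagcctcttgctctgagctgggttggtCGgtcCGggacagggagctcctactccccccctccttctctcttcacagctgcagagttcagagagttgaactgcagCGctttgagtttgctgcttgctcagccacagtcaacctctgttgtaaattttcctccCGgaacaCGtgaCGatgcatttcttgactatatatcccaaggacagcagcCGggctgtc
Kcnh1: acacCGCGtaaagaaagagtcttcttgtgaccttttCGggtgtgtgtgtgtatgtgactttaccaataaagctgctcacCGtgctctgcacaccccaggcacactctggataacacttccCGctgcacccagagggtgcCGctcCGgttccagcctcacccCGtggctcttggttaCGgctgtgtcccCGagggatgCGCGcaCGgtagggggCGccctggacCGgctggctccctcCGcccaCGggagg
Kcnma1: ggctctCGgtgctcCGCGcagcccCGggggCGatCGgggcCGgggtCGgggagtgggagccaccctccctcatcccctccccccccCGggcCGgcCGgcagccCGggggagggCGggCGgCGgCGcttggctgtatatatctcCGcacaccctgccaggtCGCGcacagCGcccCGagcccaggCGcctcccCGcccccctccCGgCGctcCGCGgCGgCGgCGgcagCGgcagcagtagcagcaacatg
Kcnj15: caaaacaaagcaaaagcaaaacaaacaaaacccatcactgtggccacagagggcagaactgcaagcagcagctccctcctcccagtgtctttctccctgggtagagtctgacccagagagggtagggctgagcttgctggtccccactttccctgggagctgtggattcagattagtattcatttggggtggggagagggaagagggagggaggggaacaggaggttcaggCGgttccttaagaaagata
The windows differ in CpG content. Kcnma1 has 31 CpG dinucleotides, more than 94.8% of all 32851 upstream windows of this length, and Kcnh1 has 17 (more than 76.5%). Kcne4 has 7 (more than 53.7%) and Kcnj15 only 1 (more than 7.87%). Sites of 4 kinds were searched on both strands. The AP-1 motif TGANTCA occurs in 6.75% of all windows and in none of the 4. The same holds for the TEAD motif GGAATG, which occurs in 12.6% of windows, and for the RUNX motif TGTGGT, which occurs in 14% of them. The core promoter element TATAAA, present in 12.4% of windows, is also missing from the 4, which says only that these letters are not in these windows. GENCODE places the 5′ end of Kcne4 and of Kcnma1 further upstream than RefSeq.

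Kcnj15 (chromosome 16, 95257558 to 95300260, GRCm38, plus strand), an inward rectifier best known from kidney and other epithelia, had the smallest p of the members at day 7. In undamaged hearts it stood at 10.1, 10.4, 7.10, 5.88 and 10.4 CPM in the positive and 11.7, 12.2, 21.9 and 4.27 CPM in the negative libraries. At day 7, with 4 of the gates by table name, Kcnj15 stood at 123, 115 and 53.6 CPM in the positive and 199, 198 and 107 CPM in the negative libraries. It stood at 33.3 and 18.1 CPM (positive) and 67.6 and 40.0 CPM (negative) at day 14, and at 30.8, 47.5, 42.6 and 47.1 CPM (positive) and 69.8, 36.8 and 58.3 CPM (negative) at day 28. Day 7 libraries were highest, and neither they nor the day 28 libraries overlapped undamaged ones; at day 14 one positive library fell below undamaged negative A6. The log2 differences were 3.68 ± 0.31 (adjusted p = 1.44e-09), 1.92 ± 0.33 (adjusted p = 0.000211) and 2.19 ± 0.29 (adjusted p = 2.36e-05) at days 7, 14 and 28. An antisense gene, Gm49643, shares 333 exon bases with Kcnj15, and the strand setting of the counts is not given.

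Kcnma1 (chromosome 14, 23289431 to 24014491, minus strand), the pore of the large-conductance channel opened by calcium and voltage, was also higher at all 3 times. Undamaged hearts gave 3.29, 1.97, 3.55, 1.88 and 1.65 CPM in positive libraries and 3.52, 4.10, 11.9 and 4.10 CPM in negative ones. At day 7 Kcnma1 stood at 20.5, 20.8 and 10.02 CPM (positive) and 26.01, 38.5 and 34.6 CPM (negative), and at day 14 at 17.3 and 6.33 CPM (positive) and 31.6 and 11.7 CPM (negative). At day 28 it stood at 22.7, 26.3, 29.7 and 30.1 CPM (positive) and 42.6, 17.96 and 20.8 CPM (negative). Undamaged negative A6, at 11.9 CPM, reached into the day 7 and day 14 ranges, and no undamaged library reached those of day 28. The differences were 2.68 ± 0.37 (adjusted p = 5.82e-06), 2.07 ± 0.39 (adjusted p = 0.000769) and 2.78 ± 0.36 (adjusted p = 1.34e-05). Among prefixed libraries alone, that of day 14 was 1.78 (adjusted p = 0.0668). Exons of a transcript on the other strand, 4930519K11Rik, share 1016 bases with Kcnma1.

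Kcne4 (chromosome 1, 78816758 to 78820028, plus strand), a small auxiliary subunit that inhibits several voltage-gated channels, was narrow in range before injury. Undamaged libraries held 30.7, 22.0, 20.2, 24.3 and 25.8 CPM (positive) and 28.9, 27.4, 29.0 and 28.9 CPM (negative). At day 7 Kcne4 stood at 119.6, 79.2 and 69.0 CPM (positive) and 71.9, 32.0 and 57.2 CPM (negative), and at day 14 at 51.1 and 42.8 CPM (positive) and 43.7 and 60.8 CPM (negative). At day 28 it stood at 41.3, 51.1, 74.9 and 73.9 CPM (positive) and 97.9, 107 and 117 CPM (negative). No library after ligation overlapped the undamaged ones. The differences were 1.45 ± 0.21 (adjusted p = 1.03e-05) at day 7, 0.89 ± 0.23 (adjusted p = 0.0127) at day 14 and 1.60 ± 0.20 (adjusted p = 9.73e-06) at day 28. At day 14 the call was lost without negative library D9 (0.79, adjusted p = 0.0653) and without the 6 libraries of high Xist (0.83, adjusted p = 0.129).

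Kcnh1 (chromosome 1, 192190774 to 192510159, plus strand), the ether-a-go-go voltage-gated pore, was near the limit of detection in undamaged hearts, with 5 counts in the 5 positive and 2 in the 4 negative libraries. Kcnh1 stood at 1.52, 1.12 and 1.59 CPM (positive) and 2.73, 1.19 and 1.48 CPM (negative) at day 7. At day 14 it was at 0.353 and 0.806 CPM (positive) and 1.27 and 1.01 CPM (negative), and at day 28 at 0.139, 0.492, 0.189 and 0 CPM (positive) and 0.546, 0.433 and 0.762 CPM (negative). All day 7 and day 14 libraries lay above the undamaged ones, and day 28 overlapped them. The differences were 4.97 ± 0.69 (adjusted p = 7.41e-06), 4.05 ± 0.72 (adjusted p = 0.000366) and 2.88 ± 0.69 (adjusted p = 0.0119). The day 28 call was lost among prefixed libraries (2.47, adjusted p = 0.149) and without the libraries of high Xist (2.84, adjusted p = 0.0605). Among letter-coded libraries alone Kcnh1 did not pass the low-count filter.

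**Figure D3:**
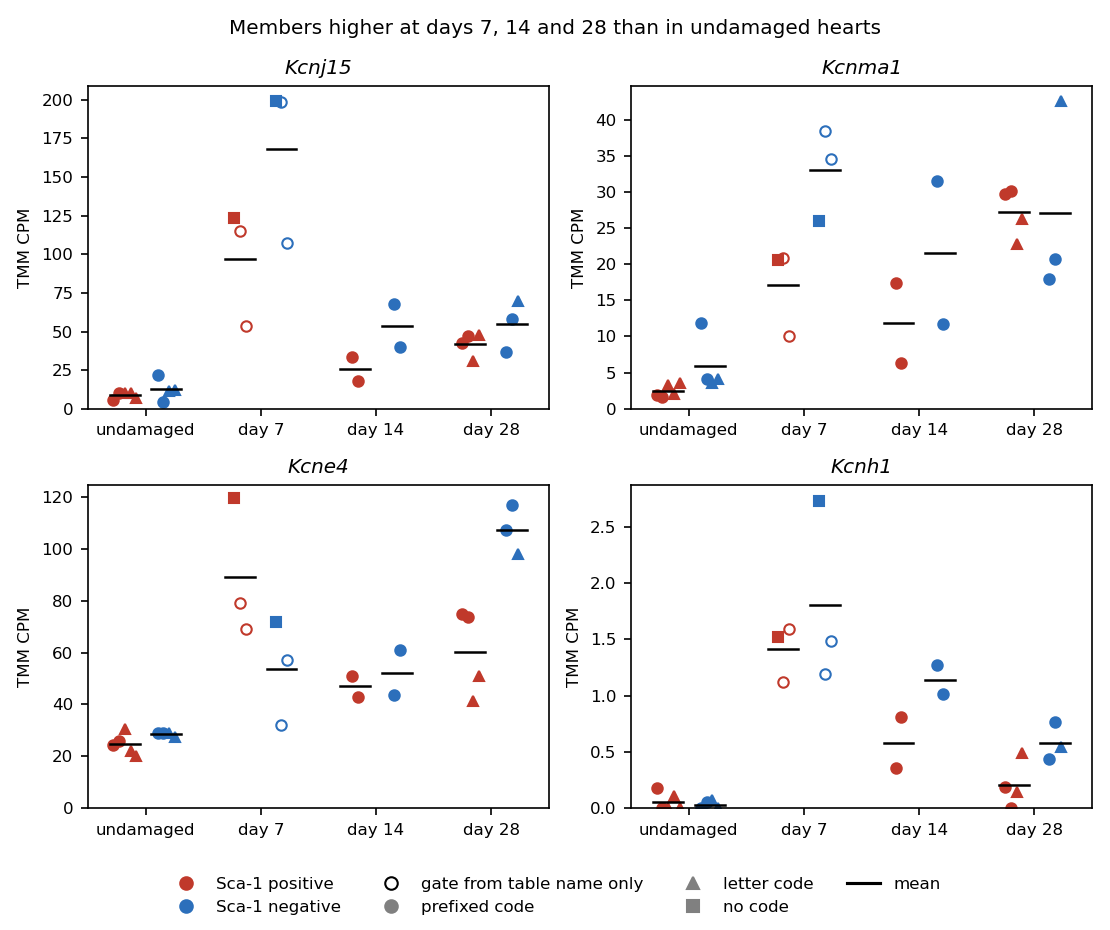
TMM CPM of Kcnj15, Kcnma1, Kcne4 and Kcnh1 in each of the 26 libraries by time and gate; points are libraries, open where the gate comes from the table name only, shapes give the kind of code and bars are means. Kcnj15 is highest at day 7, where it reaches 199 CPM, and Kcne4 is higher in the negative than the positive gate at day 28 and the other way round at day 7 by table name (neither difference called).

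Among the other voltage-gated pores, Kcnd1, a Shal-type pore that opens at low voltage and inactivates, ranged from 5.28 to 8.88 CPM in undamaged hearts (median 6.08), from 8.22 to 12.9 CPM at day 7 (median 10.4) and from 9.58 to 13.01 CPM at day 14. Its differences were 0.68 ± 0.15 (adjusted p = 0.00116) and 0.70 ± 0.16 (adjusted p = 0.0053), the latter not called among prefixed libraries (0.73, adjusted p = 0.0613).

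Kcnh3, a relative of Kcnh1 known from the forebrain, held 3 counts in the undamaged positive and 2 in the undamaged negative libraries. At day 7 it stood at 0.069, 0.225 and 0.663 CPM (positive) and 0.0739, 1.74 and 1.39 CPM (negative), and at day 14 at 0.706 and 0.227 CPM (positive) and 2.14 and 1.07 CPM (negative). The day 7 libraries overlapped the undamaged ones and those of day 14 did not. The differences were 4.17 ± 0.89 (adjusted p = 0.00109) and 4.73 ± 0.92 (adjusted p = 0.000925). Of the 3 Shaker-type pores tested over time, Kcna5 and Kcna2 were lower at day 7 and Kcna6 was not called (-1.82 ± 1.07, adjusted p = 0.232). Kcna5 ranged from 0.843 to 8.05 CPM in undamaged hearts and from 0.862 to 2.69 CPM at day 7 (-1.40 ± 0.47, adjusted p = 0.0305). Kcna2 ranged from 1.33 to 24.0 CPM and from 0.887 to 4.82 CPM (-1.81 ± 0.65, adjusted p = 0.0449), and both overlapped the undamaged range. Kcna5 was no longer called without undamaged E3 positive or F3 negative or without day 7 libraries 4A, 1B or the labelled negative (adjusted p up to 0.0710), and Kcna2 in 8 of 15 such omissions (adjusted p up to 0.138, without undamaged negative B7). Among prefixed libraries alone Kcna5 (-0.91, adjusted p = 0.380) and Kcna2 (-1.85, adjusted p = 0.124) were not called either.

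Silent subunits form no current of their own and join other voltage-gated pores. Kcng2 had 6 counts in undamaged positive and 1 in undamaged negative libraries, and reached 0.0562 to 1.27 CPM at day 7 and 0.408 to 0.807 CPM at day 14. The differences for Kcng2 were 3.57 ± 0.84 (adjusted p = 0.00271) and 3.72 ± 0.87 (adjusted p = 0.0058), and without the 6 libraries of high Xist neither was called (3.66, adjusted p = 0.0775, and 3.56, adjusted p = 0.118). All 6 undamaged counts of Kcns1 came from positive library A6, at 0.353 CPM, against 0.265 to 3.17 CPM at day 7 and 0.403 to 0.893 CPM at day 14. Its differences were 4.55 ± 0.88 (adjusted p = 0.000434) and 3.57 ± 0.92 (adjusted p = 0.0131), the second lost without negative D9 (3.19, adjusted p = 0.0566) and without the libraries of high Xist (3.13, adjusted p = 0.211). Kcns1 did not pass the low-count filter, and so had no test, among prefixed libraries or in the day 7 fits that left out 1A, 1B or the labelled negative. Kcng4 fell at day 7, from 1.33 to 11.03 CPM (median 3.41) to 1.30 to 2.21 CPM (median 1.71; -1.52 ± 0.45, adjusted p = 0.0139). Its undamaged spread follows the gate, as described below.

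Of the pores opened by calcium, Kcnn4, the intermediate-conductance channel known from activated lymphocytes and proliferating fibroblasts, held 6 counts in all 9 undamaged libraries. It stood at 0.483, 0.337 and 0 CPM (positive) and 1.18, 1.27 and 0.835 CPM (negative) at day 7 and at 0.202, 0.579, 1.12 and 0.408 CPM at day 14. The differences of Kcnn4 were 3.96 ± 0.77 (adjusted p = 0.000465) and 3.70 ± 0.80 (adjusted p = 0.0030), with day 7 overlapping the undamaged range through 1 library at 0. Among prefixed libraries, and in the day 7 fits without 1B, 4B or the labelled negative, Kcnn4 did not pass the low-count filter and had no test. Kcnn3, a small-conductance channel, ranged from 3.97 to 16.8 CPM in undamaged and from 10.3 to 27.5 CPM in day 7 libraries (0.87 ± 0.29, adjusted p = 0.0314). Leaving out undamaged positive E3 or F3, day 7 4A or 4B or the labelled day 7 positive ended that call (adjusted p up to 0.0746), and so did the prefixed libraries alone (0.88, adjusted p = 0.162). The leukocyte markers summed to 6.24 to 26.5 CPM in undamaged and 21.1 to 45.4 CPM in day 7 libraries, with 3 of 5 tested higher at day 7. Their part in the levels of Kcnn4 was not tested.

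Kcnt2, a sodium-sensitive pore, and Kcnk2, a leak channel opened by stretch and lipids, were the most abundant members that fell at day 7. Kcnt2 stood at 114, 124, 106, 80.3 and 88.9 CPM (positive) and 88.3, 64.0, 60.7 and 69.8 CPM (negative) in undamaged hearts. At day 7 Kcnt2 was at 50.3, 57.5 and 71.3 CPM (positive) and 40.9, 33.8 and 55.1 CPM (negative), so that over both gates 1 day 7 library, at 71.3 CPM, reached into the undamaged range of 60.7 to 124 CPM. The difference was -0.78 ± 0.23 (adjusted p = 0.0169), and -0.47 among prefixed libraries (adjusted p = 0.126). Kcnk2 stood at 34.0, 37.2, 44.1, 58.2 and 58.5 CPM (positive) and 73.6, 59.8, 64.4 and 55.5 CPM (negative) in undamaged hearts and at 24.9, 38.04 and 26.7 CPM (positive) and 19.2, 43.7 and 24.5 CPM (negative) at day 7. Kcnk2 fell by 0.87 ± 0.18 on the log2 scale (adjusted p = 0.00106), a call lost without the libraries of high Xist (-0.41, adjusted p = 0.404). At day 28 it ranged from 32.9 to 70.3 CPM, with a difference of 0.04 ± 0.17. The other paired-domain channel of some abundance, Kcnk6, was called at no time: it ranged from 5.14 to 18.3 CPM in undamaged hearts and differed by 0.35 ± 0.18 (adjusted p = 0.173), 0.30 ± 0.20 (adjusted p = 0.425) and 0.08 ± 0.17 (adjusted p = 0.850) at days 7, 14 and 28.

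Of the 7 auxiliary subunits tested over time, Kcne4 was higher and 2 were lower at day 7. Kcnip3, a calcium-binding protein that associates with Shal-type pores and also acts as a transcriptional repressor, stood at 11.6, 15.04, 18.2, 24.0 and 15.2 CPM (positive) and 19.0, 20.9, 30.6 and 18.7 CPM (negative) in undamaged hearts. It ranged from 7.98 to 13.7 CPM at day 7 (median 10.3) and from 8.55 to 11.9 CPM at day 14. Kcnip3 fell by 0.86 ± 0.21 (adjusted p = 0.00449) and by 0.93 ± 0.25 (adjusted p = 0.0150), the latter lost without either D9 library (adjusted p of 0.0714 and 0.0592). Kcnab1, a cytosolic beta subunit of Shaker-type channels, ranged from 1.78 to 6.02 CPM in undamaged hearts and from 0.517 to 1.27 CPM at day 7, with no overlap. Kcnab1 fell by 1.96 ± 0.44 (adjusted p = 0.00181) at day 7 and by 2.03 ± 0.51 (adjusted p = 0.0104) at day 14, where the call was lost without positive D1 or negative D9 (adjusted p of 0.0524 and 0.0508).

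Endothelial markers moved with time as well: all 7 were lower at day 7, with summed levels of 85.6 to 325 CPM in undamaged and 42.0 to 52.7 CPM in day 7 libraries, 4 of 7 were lower at day 14 and 6 of 7 at day 28. The summed markers of mural cells (pericytes, smooth muscle) ranged from 461 to 1244 CPM in undamaged and from 890 to 1717 CPM in day 7 libraries, with 3 of 12 tested higher. Their part in the members' differences was not tested.

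Without the 6 libraries of high Xist, 2 libraries remained at day 7 and 2 at day 14. Then 10 members were called at day 7 (9 higher, and Kcnip3 lower at -1.28, adjusted p = 0.0277), 7 at day 14 and 3 at day 28, all of those higher. Calls fell over all genes as well, at day 7 to 880 from 3048 with all libraries, and also at days 14 and 28. These totals over all genes are not split by direction, so the higher and the lower member calls have no such share beside them. Whether the lost member calls follow Xist or the smaller number of libraries was not tested. Of the 7 members that had been lower at day 7, 6 lost their call: beside Kcnk2 these were Kcnt2 (-0.97, adjusted p = 0.163), Kcnab1 (-1.88, adjusted p = 0.113), Kcng4 (-1.47, adjusted p = 0.311), Kcna5 (-1.22, adjusted p = 0.400) and Kcna2 (-1.97, adjusted p = 0.333). Kcnn3, higher with all libraries, gave 0.37 (adjusted p = 0.681). At day 14 the lower calls of Kcnip3 (-0.74, adjusted p = 0.300) and Kcnab1 (-1.45, adjusted p = 0.311) ended too.

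The second comparison set the SCA-1 positive against the negative gate within a time, in the 20 libraries of undamaged, day 14 and day 28 hearts. In undamaged hearts 3 of 41 tested members were lower in the positive gate and none higher (7.32%; over 13812 genes 3.1% were called, 1.65% higher and 1.45% lower). Beside that 0, 4 members were higher at an unadjusted p under 0.05, and DESeq2 called 2 higher. The tested members had a median difference of -0.37, against 0.01 over all genes. The 3 were Kcnip1, Kcng4 and Kcna2.

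Kcnip1 (chromosome 11, 33629339 to 33993152, minus strand), a calcium-sensing subunit of Shal-type channels, had the largest estimate of the 3. Undamaged hearts gave 6.80, 4.05, 7.49, 3.76 and 2.93 CPM in positive and 36.4, 56.1, 17.6 and 8.15 CPM in negative libraries. Every negative library of Kcnip1 was above every positive one, though the lowest of them, B7, was close. The difference was -2.56 ± 0.48 (adjusted p = 0.00434). It was -1.93 among the prefixed (adjusted p = 0.0728) and -2.91 among the letter-coded libraries (adjusted p = 0.00169). At day 14 Kcnip1 stood at 1.16 and 1.30 CPM (positive) and 7.03 and 11.03 CPM (negative), and at day 28 at 8.04, 3.30, 1.89 and 1.73 CPM (positive) and 20.9, 14.4 and 10.6 CPM (negative). The gates did not overlap at either time, and the differences of -2.87 ± 0.77 (adjusted p = 0.574) and -2.05 ± 0.56 (adjusted p = 0.0983) were not called. With the replicate code as a block both were called, at -2.86 (adjusted p = 0.00945) and -2.78 (adjusted p = 0.00942). The block values rest on 2 pairs of libraries at each time. Among prefixed libraries, which at these times are the same pairs, neither was called (-2.87, adjusted p = 0.0802, and -2.77, adjusted p = 0.0675). DESeq2 with all libraries called both differences, at -2.89 (adjusted p = 0.0300) and -2.02 (adjusted p = 0.0143). By table name, Kcnip1 at day 7 was 1.72, 3.48 and 3.52 CPM (positive) and 3.55, 12.1 and 10.3 CPM (negative), a difference of -1.56 ± 0.61 (adjusted p = 0.827). Against undamaged hearts with the gates together, Kcnip1 differed by -1.46 ± 0.70 at day 7 (adjusted p = 0.135) and -1.63 ± 0.81 at day 14 (adjusted p = 0.242). The fit with both gates as groups, which takes the day 7 gates from the table names, called both (-1.28, adjusted p = 0.0201, and -1.87, adjusted p = 0.00999).

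Kcng4 (chromosome 8, 119623854 to 119635680, minus strand), the silent subunit met above, stood at 2.10, 1.33, 1.53, 3.41 and 3.21 CPM in undamaged positive and 11.03, 7.13, 7.31 and 9.46 CPM in undamaged negative libraries, with no overlap. The difference was -1.91 ± 0.37 (adjusted p = 0.00526). Kcna2 (chromosome 3, 107101146 to 107115005, plus strand), a Shaker-type pore known from axons, stood at 1.83, 1.33, 1.68, 1.82 and 4.50 CPM (positive) and 14.6, 7.20, 3.74 and 24.0 CPM (negative). Kcna2 overlapped through 1 library of each gate, and differed by -2.46 ± 0.49 (adjusted p = 0.00688). Neither was called with the block (Kcng4 -1.61, adjusted p = 0.0850; Kcna2 -1.87, adjusted p = 0.0668) or among prefixed libraries (Kcng4 -1.33, adjusted p = 0.262; Kcna2 -2.11, adjusted p = 0.255). Letter-coded libraries alone called both (-2.45, adjusted p = 0.0072, and -2.75, adjusted p = 0.00226). At day 7 by table name, the gates of Kcng4 held 2.21, 1.69 and 1.72 CPM (positive) and 1.70, 2.06 and 1.30 CPM (negative), so they overlapped (0.14 ± 0.44, 95% interval -0.72 to 1.01). At day 14 Kcng4 held 3.68 and 4.71 CPM (positive) and 5.86 and 4.80 CPM (negative), without overlap but close.

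At day 14 none of 41 members was called between the gates by edgeR, with 2 at an unadjusted p under 0.05, Kcnip1 and Kcnj15, and 1 by DESeq2, Kcnip1 (over all genes 0.0507% were called). Kcnj15 differed by -1.07 ± 0.49 (adjusted p = 1). At day 28 Kcnt2 was the 1 member called, higher in the positive gate (2.44%; over all genes 0.594%, 0.434% higher and 0.159% lower). Kcnt2 stood at 136, 106, 63.4 and 68.3 CPM in positive and 53.0, 40.1 and 43.1 CPM in negative libraries, with no overlap and a difference of 1.06 ± 0.24 (adjusted p = 0.0454). This call rested on single libraries: it was lost in 5 of 7 omissions, of E2, F2, or negative E4, B4 or B6 (0.82 to 1.18, adjusted p 0.0833 to 0.275). With the block the value was 0.67 (adjusted p = 0.120), and it was 0.67 among prefixed (adjusted p = 0.355) and 1.197 among letter-coded libraries (adjusted p = 0.118). The block and prefixed values are not separate checks, as both rest on the pairs B4 and B6 at day 28. E2 is the library with the fewest counts, 6.79 M, and 55.8% of its reads lay outside genes. The next highest such share was 18.7%, in day 28 positive B6. Kcne4 at day 28 was lower in the positive gate without overlap but missed the threshold (-0.82 ± 0.19, adjusted p = 0.0553), and DESeq2 called it (-0.82, adjusted p = 0.00569).

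At day 7 by table name none of 45 tested members was called by edgeR or DESeq2, with 3 at an unadjusted p under 0.05 (over 14052 genes 0.206% were called, 0.185% higher and 0.0213% lower). Kcne4 had the smallest p, higher in the positive gate by 0.72 ± 0.25 (adjusted p = 0.688), the opposite sign from day 28. Kcnma1 differed by -0.95 ± 0.46 there (adjusted p = 0.974). In undamaged hearts its gate difference was -1.25 ± 0.42 (adjusted p = 0.124), which DESeq2 called (-1.28, adjusted p = 0.0428), and -0.51 (adjusted p = 0.758) without the 3 libraries of fewest detected genes. The labelled pair alone gave 119.6 CPM of Kcne4 in the positive and 71.9 CPM in the negative library. The test of a change of the gate difference from undamaged hearts called no member at day 14 or day 28 by edgeR or DESeq2, with 1 and 2 at an unadjusted p under 0.05 (over all genes 0% were called). These were Kcng4 at day 14 (1.56 ± 0.65, adjusted p = 1) and Kcne4 (-0.60 ± 0.26) and Kcna6 (4.75 ± 2.15) at day 28 (adjusted p = 0.907). Kcnab2, second by p at day 14, gave -2.21 ± 1.48 (adjusted p = 1).

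**Figure D4:**
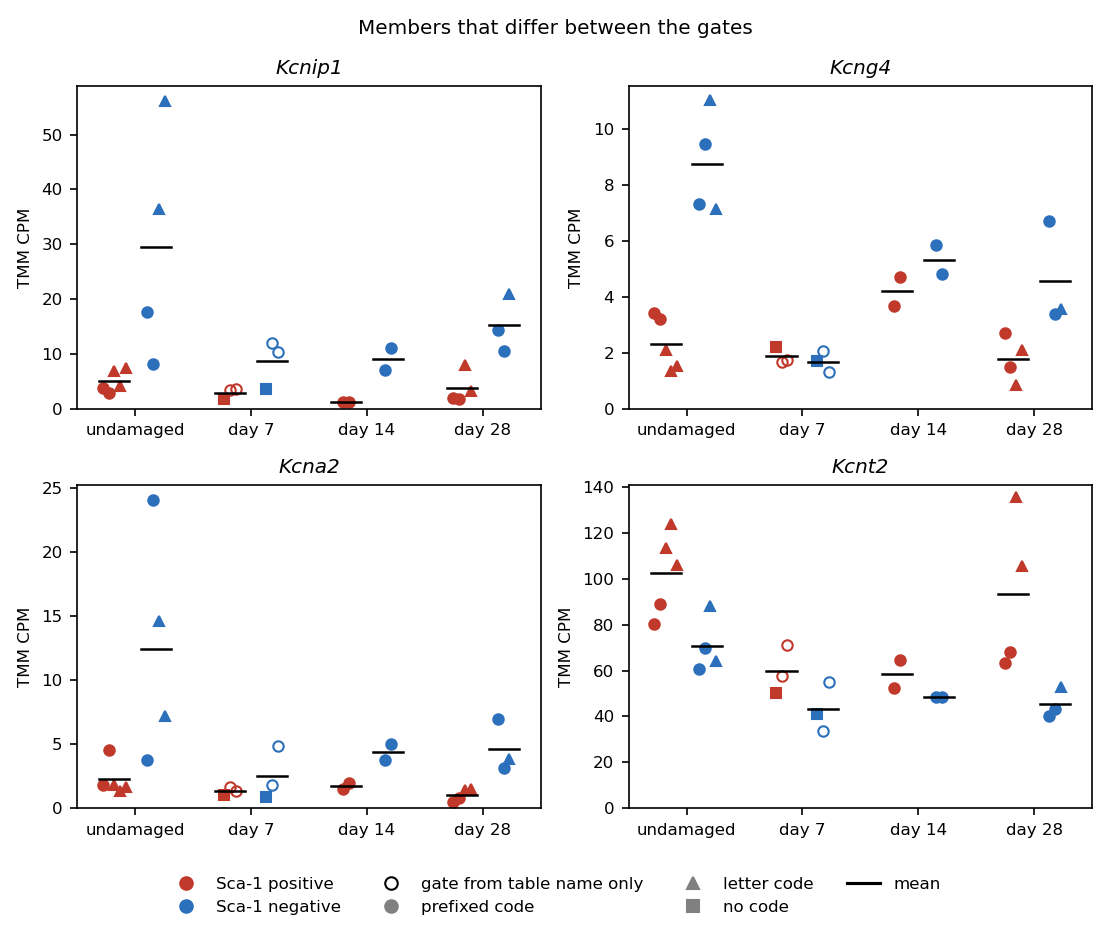
TMM CPM of Kcnip1, Kcng4, Kcna2 and Kcnt2 in each of the 26 libraries by time and gate; points are libraries, open where the gate comes from the table name only, shapes give the kind of code and bars are means. In undamaged hearts the negative libraries of Kcnip1 (8.15 to 56.1 CPM) lie above the positive ones (2.93 to 7.49 CPM).

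Mural markers moved with the gate. Their summed level was 461 to 733 CPM in undamaged positive and 792 to 1244 CPM in undamaged negative libraries, and 3 of 13 were lower in the positive gate, with a median difference of -1.05. At day 28 the sums were 514 to 1018 and 861 to 1069 CPM, and 1 of 13 was lower. The summed Schwann and neural markers were 6.76 to 12.9 CPM in undamaged positive and 5.72 to 14.7 CPM in undamaged negative libraries, with 0 of 4 called and 2 of the 6 at 0 in all libraries of each gate; 0 is also the edgeR count at days 14 and 28. The part of these cells in the gate differences was not tested.

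Kcnj8 (chromosome 6, 142564837 to 142571614, minus strand) is the pore of the ATP-sensitive channel of pericytes and vascular smooth muscle, where it pairs with the sulfonylurea receptor Abcc9. In undamaged hearts Kcnj8 stood at 9.07, 8.64, 7.20, 10.1 and 11.2 CPM (positive) and 23.9, 33.2, 13.7 and 14.9 CPM (negative). At day 7 it stood at 3.93, 4.05 and 7.43 CPM (positive) and 4.80, 13.6 and 6.58 CPM (negative), and at day 14 at 9.83 and 7.71 CPM (positive) and 8.00 and 10.7 CPM (negative). At day 28 it stood at 2.36, 3.86, 5.87 and 29.6 CPM (positive) and 7.92, 19.7 and 10.9 CPM (negative). The undamaged gates did not overlap, but the difference of -1.21 ± 0.50 was not called (adjusted p = 0.221), and at day 28 positive library B6 lay above all negative ones. Letter-coded undamaged libraries alone called Kcnj8 (-1.78, adjusted p = 0.00226). Against undamaged hearts Kcnj8 differed by -1.12 ± 0.43 at day 7 (adjusted p = 0.0613), which DESeq2 called (-1.10, adjusted p = 0.0314), as did the fit with both gates as groups (-1.10, adjusted p = 0.0457). Leaving out day 7 1B (-1.44, adjusted p = 0.0268) or undamaged positive F3 (-1.21, adjusted p = 0.0476) also gave a call. At days 14 and 28 it differed by -0.71 ± 0.48 (adjusted p = 0.440) and -0.37 ± 0.40 (adjusted p = 0.672).

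Abcc9, listed here as a partner gene and no member, was below its negative-gate level in undamaged positive libraries (51.6 against 159 CPM on average; -1.62 ± 0.37, adjusted p = 0.0167) and at day 7 against undamaged hearts (-1.78 ± 0.44, adjusted p = 0.00402). Across the 26 libraries the log2 levels of Kcnj8 and Abcc9 had a Pearson r of 0.789, a description over libraries that share time and gate. The other pore that Abcc9 can join, Kcnj11, did not exceed 0.139 CPM in any library. In day 28 positive B6, Abcc9 stood at 109 CPM and the pericyte marker Rgs5 at 17.6 CPM, against 21.7 to 41.3 and 1.45 to 5.69 CPM in the other 3 positive libraries. In that library, then, Kcnj8, Abcc9 and Rgs5 were all above the other positive libraries of day 28. So were the mural markers Des, Steap4, Myh11, Mcam and Vtn, while Notch3 and Pdgfrb were lowest there and Higd1b had no count. Day 28 positive B6 held 9.02 M gene counts, with 18.7% of its reads outside genes and Xist at 10.5 CPM. The part of pericytes in the levels of this library was not tested.

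**Figure D5:**
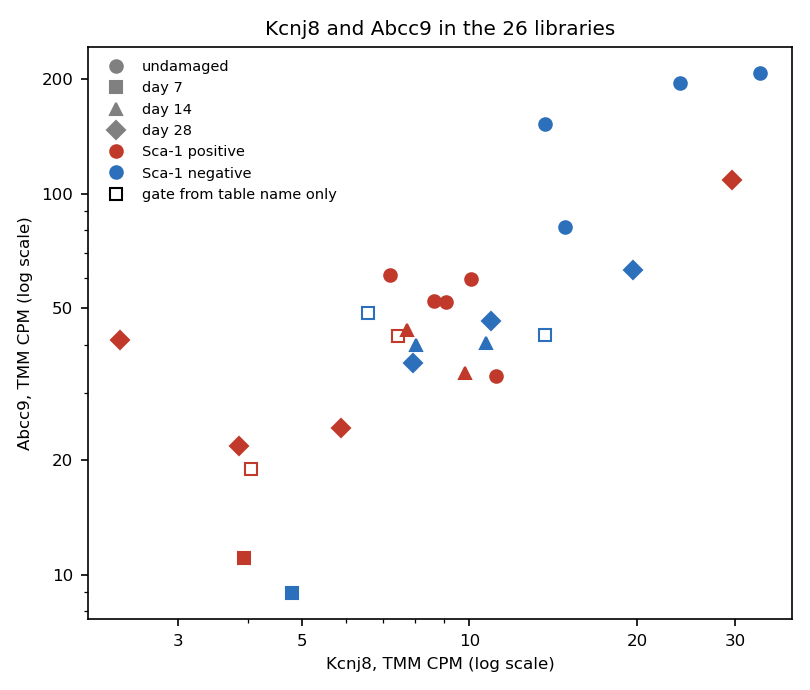
Kcnj8 against Abcc9 in the 26 libraries (TMM CPM, both axes log); shapes give the time, colours the gate, and open squares are day 7 libraries whose gate comes from the table name only. Undamaged negative libraries lie at the upper right with 1 day 28 positive library (29.6 CPM of Kcnj8, 109 CPM of Abcc9), and the labelled day 7 pair is lowest for Abcc9.

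Of 31 listed partner genes of potassium transport, 21 were tested between the gates. Between the undamaged gates 1.65% of all genes were called higher and 1.45% lower. Of the 21 partners, 5 were lower in the undamaged positive gate and none higher by edgeR (1 higher, Fxyd5, at an unadjusted p under 0.05). Beside Abcc9 these included Lrrc55, an accessory subunit of the Kcnma1 channel (5.46 against 23.0 CPM; -2.07 ± 0.40, adjusted p = 0.0049), and the sodium pump subunits Atp1b2 (-1.37, adjusted p = 0.0138) and Atp1b1 (-1.84, adjusted p = 0.0242). Atp1b2 was lower in the positive gate at day 28 too (-1.96, adjusted p = 0.0103). Over time 20 partners were tested. At day 7, Slc12a7, a potassium-chloride cotransporter, was higher (1.496, adjusted p = 0.000156). At that time 6 were lower, among them Atp1b3, Fxyd1, Amigo1, Tmem38a and Abcc9 (over all genes 11.5% were higher and 11.2% lower). At day 14 2 were higher, Slc12a7 (1.05) among them, and 1 was lower (over all genes 5.84% and 3.14%). At day 28 no partner was called by edgeR (5.39% of all genes were), with 3 at an unadjusted p under 0.05 (Slc12a7, Abcc9 and Atp1b1).

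The genes whose log2 levels followed each of 4 members most closely over the 26 libraries are given as a description; the libraries share time, gate and depth. For Kcne4 these were Gas6 (Pearson r = 0.867), Sfrp2 (0.855), B4galt1 (0.807), Gab1 (0.792) and Wisp2 (0.788). Kcnma1 was followed by Pdgfc (0.912), Comp (0.907), Steap2 (0.885), Pdgfrl (0.881) and Thbs4 (0.873). For Kcnip1 they were Apba2 (0.933), Gm4956 (0.858), Cntfr (0.852), Fnbp1 (0.837) and Blnk (0.830). Kcnj8 was followed by Sh2d3c (0.882), Tmem51 (0.815), Rasgrp2 (0.789), Abcc9 (0.789) and Trp53i11 (0.786). Among members, Kcnj15 and Kcnma1 had an r of 0.872, and Kcng4 and Kcna2 one of 0.765.

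The remaining members were scarce. A count but no test in any comparison was the case for 42, of which Kcnmb4 reached the highest level in a library, 5.12 CPM, followed by Kcnc4 at 2.52 CPM. For 29 members no library exceeded 3 counts.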

How the data were processed

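The deposited values were raw counts, whole numbers of reads per gene and library, as the authors made them. The submitters' processing notes name the build mm10 and, in no order, STAR, TopHat, Bowtie2, Cufflinks and bcl2fastq, and per the labels the libraries came from a stranded mRNA kit read as paired ends. The counting program, its strand setting and its annotation are not given in the sources used here, so reads of overlapping antisense genes may be included. Reads outside genes (5.53% to 55.8% of a library) and ambiguous reads (0.128% to 0.646%) were left out of library sizes and tests. Positions and exon lengths came from GENCODE M21, matched by symbol for all 97 members, and upstream sequences from RefSeq (GRCm38.p6).

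Counts were tested with edgeR 4.0.16 (R 4.3.3): TMM scaling, filterByExpr with a minimum count of 10, the quasi-likelihood test and Benjamini-Hochberg adjustment over all genes of a fit, with calls at an adjusted p under 0.05. Gate differences and their change with time came from 20 libraries in 6 groups (13812 genes), time differences from 26 libraries in 4 groups (13392 genes), and the day 7 gate difference from 26 libraries in 8 groups (14052 genes). The day 7 gates of 4 libraries are known only from the names of their tables. DESeq2 1.42.0, other scalings, filters, subsets of libraries and a replicate block were alternatives, and the fits were tested on simulated data. Deviations from the group means of same-coded libraries of the gates correlated at 0.259 to 0.425 (9 pairs, 13812 genes), and the codes were taken as pairs. At day 7 the code was the number before A or B. Differently coded libraries are not set beside these values, so they do not show that a code marks a pair. With 2 libraries a gate, the 2 pairs of day 14 give 1 value by construction. The time tests count each library on its own, and summing same-coded libraries was an alternative. No 2 libraries were identical. Counts carry no molecular identifiers, and floors cover counting error only.

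Named members are the 4 given at the outset (Kcne4, Kcnma1, Kcnip1, Kcnj8), every called member, the 12 with the highest mean CPM, and the 2 with the smallest p where a comparison had no call. The most similar genes are the 5 with the highest Pearson r of log2(CPM + 0.5). Some items are withheld from the text and figures and are not reported here; counts of members and genes include them. The members and lists were chosen with earlier results of these data known.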

Additional observations from a re-analysis of the deposited data

Results flagged for a closer look

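Of 68 combinations of a named member and a group of at least 4 libraries, 10 held a library set apart from the rest by Dixon's 95% criterion. Chance alone flags about 1 in 20 groups of normally distributed values. A library with a count beside others all at 0 is always flagged, and the 68 share libraries. That rate therefore does not hold for this set. In undamaged negative libraries these were Kcnma1 in A6, at 11.9 CPM (the next 4.1 CPM), Kcnd1 in F3, at 8.14 CPM (5.7 CPM), and Kcne4 in F3, at 27.4 CPM below the next at 28.9 CPM. In the same group Kcng2 in E5 (0.0676 CPM) and Kcnn4 in F3 (0.0673 CPM) stood apart from libraries at 0, each through 1 count. In undamaged positive libraries they were Kcna2 in B7, at 4.5 CPM (1.83 CPM), Kcng2 in E3, at 0.213 CPM (0.054 CPM), and Kcns1 in A6, at 0.353 CPM with all others at 0. At day 28 in the positive gate they were Kcnd1 in B4, at 7.9 CPM (6.12 CPM), and Kcnj8 in B6, at 29.6 CPM (5.87 CPM).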

How the results depend on the processing

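Between the gates, in undamaged hearts 3 members were called; DESeq2 called 7, the fit without a low-count filter 5, prefixed libraries alone 1, letter-coded libraries alone 7, and fits leaving out 1 library 3 to 4. At day 14 the main count of 0 became 1 with DESeq2 and 1 with the replicate block, and stayed 0 in every leave-one-out fit. At day 28 the count of 1 became 4 with DESeq2, 0 among prefixed and 0 among letter-coded libraries, 4 without the 3 undamaged libraries of fewest genes, 0 without the 6 libraries of high Xist, and 0 to 2 in leave-one-out fits. With the replicate block the undamaged count was 2 and that of day 28 was 1. Over all genes, 428 were called between the undamaged gates in the main fit, 824 by DESeq2 and 426 without a filter. Prefixed libraries gave 212, letter-coded ones 603 and the block 579. At day 28 the main fit called 82 genes, DESeq2 416, prefixed libraries 25, letter-coded ones 24 and the block 99. Over time, with 18, 12 and 4 members called at days 7, 14 and 28, the fit with both gates as groups called 23, 15 and 5, prefixed libraries alone 12, 8 and 5, and summed same-coded libraries 17, 8 and 4. DESeq2 called 19, 14 and 6, and the fit without a low-count filter 21, 13 and 5. Without the 3 undamaged libraries of fewest genes the counts were 19, 15 and 4. Letter-coded libraries alone called 5 at day 28, 3 of them higher, with Kcns3 and Kcnn1 lower and Kcnh1 lost. Leaving out the libraries of high Xist gave 10 members at day 7, 7 at day 14 and 3 at day 28, and leave-one-out fits gave 14 to 20, 8 to 13 and 4 to 5 at days 7, 14 and 28. The cause was not tested, though subsets hold fewer libraries. The 2 subsets by detected genes and by Xist and the summed counts were chosen after seeing the data. Signs turned only in differences that were not called. Without the libraries of high Xist the gate difference at day 14 was 0.20 for Kcne4 and 0.27 for Kcnj8. Among letter-coded libraries Kcnma1 gave -0.78 between the gates at day 28 and -0.42 for the change from undamaged. Among prefixed libraries Kcnj8 gave 0.20 between the gates at day 28 and 0.36 against undamaged, and Kcnip1 -0.84 for the change of its gate difference at day 28 (-0.56 with the replicate block). Without the 3 undamaged libraries of fewest genes the change at day 14 was -0.37 for Kcnma1 and 0.19 for Kcnip1. Leave-one-out fits spanned 0 between the gates for Kcne4 (-0.36 to 0.086), Kcnma1 (-1.78 to 0.027) and Kcnj8 (-0.29 to 0.11) at day 14 and for Kcnma1 (-0.20 to 0.51) and Kcnj8 (-1.63 to 0.14) at day 28. They did so for the change at day 14 of Kcne4 (-0.14 to 0.30), Kcnma1 (-0.55 to 1.28) and Kcnip1 (-0.81 to 0.040), and at day 28 of Kcnip1 (-0.13 to 0.82) and Kcnj8 (-0.42 to 1.35). Size factors of the DESeq2 type in edgeR changed no call or sign of a named member. Members below 3 counts in most undamaged libraries, such as Kcnh1, Kcnh3, Kcng2, Kcns1 and Kcnn4, are limited by depth. Kcns1 in undamaged positive A6 (0.353 CPM) and Kcng2 in undamaged positive E3 (0.213 CPM) exceeded the level of 3 counts there (0.176 and 0.16 CPM).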

Other observations

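Some members outside the rule for named genes, chosen after their values were seen, were, like Kcnma1, called between the undamaged gates only under an alternative. Kcnk5, an alkali-sensitive leak channel, stood at 6.21, 12.6, 10.5, 9.41 and 8.27 CPM in positive and 1.49, 2.62, 0.0813 and 2.11 CPM in negative libraries, without overlap. The edgeR difference for Kcnk5 was 2.56 (adjusted p = 0.0507), and DESeq2, the unfiltered fit, the fit with the replicate block and the letter-coded libraries called it. Kcne1l, an auxiliary subunit, stood at 1.78, 2.51, 3.06, 4.00 and 4.82 CPM in positive and 0.676, 0.875, 0 and 0 CPM in negative libraries (3.04, adjusted p = 0.0567). Both had the opposite sign from Kcnip1, Kcng4 and Kcna2. Kcna6 reached 7.69 CPM in undamaged negative library B7 and at most 1.41 CPM in any other library, and 2355 of its exon bases are shared with the antisense gene Gm26673.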
